A study of Bos taurus with 8 samples.

Results

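Desmosomes are the spot-like junctions that rivet neighbouring epithelial cells together, and 10 of their genes were examined in rumen epithelium of Holstein bulls: the cadherins DSG2, DSG3, DSC1, DSC2 and DSC3, the plaque proteins JUP, PKP1, PKP3 and DSP, and the membrane protein PERP. The genes were chosen by name, and each had 1 probe under that name, so they make up 10 of the 15008 probes of the array and 10 of its 14960 gene names. Of the 10 genes, 9 were well above background on all 8 arrays and were tested, and DSC1 was above background on none. The tested groups were epithelium from 4 calves on the WP diet, in which wood kraft pulp, a cellulose-rich fibre, replaced 50% of the corn flakes, and from the same 4 calves (numbers 21, 23, 24 and 25) on the high-grain control diet with corn flakes. Per the series text, 5 rumen-fistulated bulls of 7.4 ± 0.3 months were crossed over between the diets with no wash-out, 14 days on each, so that every calf also ate the other diet and both groups were on a high-grain ration. Which diet each calf received first is not stated in the sources used here, and each sample is 1 labelled RNA on 1 single-colour array.

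A desmosome is built in layers. Desmogleins and desmocollins are cadherins that span the membrane and bind those of the next cell, the armadillo proteins plakoglobin (JUP) and plakophilin (PKP1, PKP3) hold their tails in a dense plaque, and desmoplakin (DSP) ties that plaque to the keratin filaments. In human and mouse epidermis DSG3 and DSC3 belong to the deeper layers, DSC1 and DSG1 to the upper layers, and DSG2 and DSC2 are the pair that simple epithelia also use. The rumen is lined by a stratified, keratinised epithelium, in which such junctions carry mechanical load and contribute to the barrier against the fermenting contents.

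Most members are read by a 60-base probe in a single stretch of the genome, and 4 probes show which letters the array measured. The DSC3, JUP and PKP3 probes and the DSP probe below stand for the cadherin and plaque classes. The capitals in DSP mark the stop codon with which its probe ends.
DSC3: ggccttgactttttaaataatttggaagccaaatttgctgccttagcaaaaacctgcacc
JUP: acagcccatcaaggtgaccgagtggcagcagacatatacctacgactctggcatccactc
PKP3: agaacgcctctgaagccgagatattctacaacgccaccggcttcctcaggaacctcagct
DSP: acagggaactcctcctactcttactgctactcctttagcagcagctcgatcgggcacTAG
Per the array design on UMD 3.1, the DSC3 probe lies at chr24:26447971-26448029 in ascending listing, and the JUP and DSP probes lie at chr19:42616573-42616632 and chr23:47671219-47671278 in descending listing. The PKP3 probe is listed over 501 bases, chr29:51274691-51275191, which is more than its own 60 bases and so crosses an intron. No pair of member probes shared a run of over 10 bases, the longest being between DSC2 and PKP1. GC content was 35% in the DSC2, PKP1 and PERP probes and 55% in the JUP and PKP3 probes.

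The 5 cadherin genes belong to 1 cluster. On UMD 3.1 their probes fall on chromosome 24, with DSG2 at chr24:25915345-25915404, DSG3 at chr24:25979112-25979171, DSC1 at chr24:26319082-26319141 and DSC2 at chr24:26377483-26377542. The desmoglein probes are listed in descending and the desmocollin probes in ascending coordinates. In the RefSeq gene order of ARS-UCD2.0, DSG4 and DSG1 lie between DSG3 and DSC1. The plaque genes and PERP are scattered, with PKP1 at chr16:81721797-81721857 and PERP at chr9:76938167-76938226. The exon or UTR position of the other probes was not analysed here.

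The arrays were alike in reach except for 1. Each array had from 9314 to 11917 probes well above background, none had a saturated spot, and all 8 arrays lay on 1 slide. The array of calf 24 on WP stood apart, with a median negative control signal of 4.06, against 1.2 to 1.90 on the other 7 arrays. On that array the viral E1A control probes read 40.7, against 1.36 to 1.97 elsewhere. All 8 markers chosen for stratified epithelium, among them KRT5, KRT14 and TP63, were above background on all 8 arrays, so the labelled tissue carried its defining genes.

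No desmosomal gene passed the test between the diets. A level is written here as log2 of the processed signal less the 75th percentile of that array, and no gene's level is set against another's. The limma fit with calf as a block called 0 of the 9 members at an adjusted p of 0.05, against 0% of all 10236 tested probes. At an unadjusted p under 0.05 it called 0 of the 9 members and 6.99% of all probes, 1.75% as lower on WP and 5.24% as higher. For each of the 9 members the WP and control ranges overlapped, and 4.86% of all probes had groups that did not overlap. Each difference below is the mean of 4 differences within a calf, and its 95% interval gives the sizes that the fit allows. Values given within a slide row are an exception, since they are not paired. Row 1 sets WP arrays of calves 21 and 23 against control arrays of calves 24 and 25. Row 2 holds the other array of each calf, so these values mix diet with differences between calves.

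**Figure D1:**
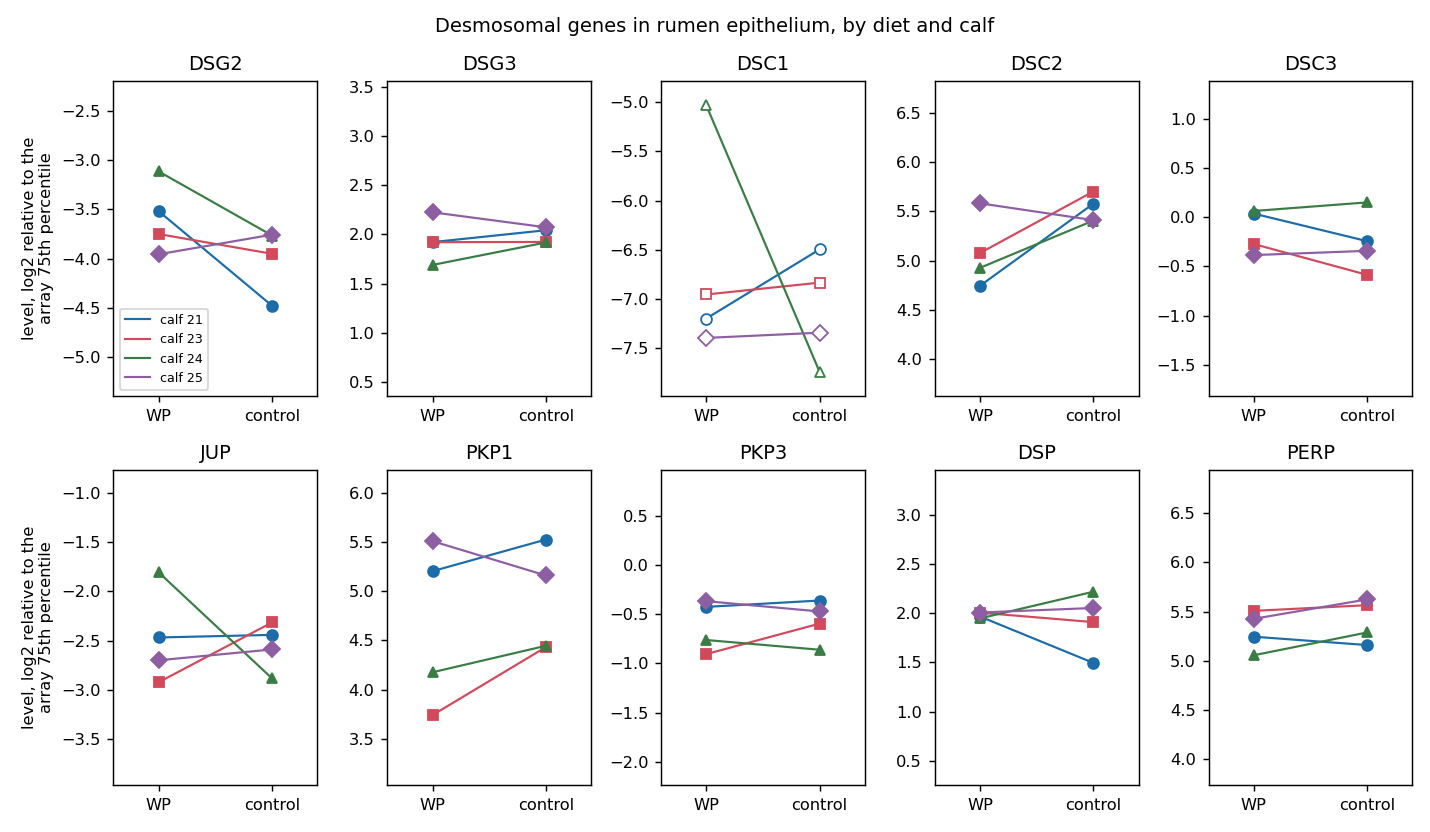
Level of each of the 10 genes (log2 relative to the array's 75th percentile) on the WP diet (left) and the control diet (right), with 1 line per calf, every panel spanning the same number of log2 units and open symbols where the probe was not well above background. DSC2 has 3 lines with lower WP values and PKP1 separates calves 21 and 25 from calves 23 and 24 on both diets.

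Of the desmocollins, DSC2, a broadly expressed member that pairs with desmogleins across the cell gap, had the most negative difference of all 9 members. DSC2 stood at 4.75, 5.08, 4.93 and 5.58 in calves 21, 23, 24 and 25 on WP, against 5.58, 5.70, 5.41 and 5.41 on control. The WP values of 3 calves lay below every control value, and that of calf 25 lay above its own control value. The mean difference was -0.44 ± 0.43 log2 (SD, n = 4 calves), with a limma 95% interval from -0.94 to 0.06 and an adjusted p of 0.658. This is a signal 1.36 times as high on control, and 3.11% of all tested probes had a difference as low or lower. Leaving out calf 25 gave -0.65 and leaving out calf 21 gave -0.31, while the values within slide rows 1 and 2 were -0.50 and -0.39.

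DSC3, the desmocollin of the deep layers in human skin, stayed near its control values. It stood at 0.03, -0.27, 0.06 and -0.39 in calves 21, 23, 24 and 25 on WP, against -0.25, -0.59, 0.15 and -0.34 on control. The difference was 0.12 ± 0.21 log2 (SD, n = 4), with a 95% interval from -0.22 to 0.46 and an adjusted p of 0.779. It was above 0 for calves 21 and 23, with WP arrays in slide row 1, and below 0 for the other two, with WP arrays in row 2. The unpaired value within row 1, WP of calves 21 and 23 against control of calves 24 and 25, was -0.02. With pairing kept, DSC3 gave 0.050 without calf 23, 0.061 without calf 21 and 0.18 without calf 24. Set against DSC3 in the same calf, the DSC2 difference was lower by 1.11, 0.94 and 0.39 in calves 21, 23 and 24. In calf 25 it was higher by 0.21. The mean was -0.56 ± 0.60 (SD, n = 4) and was not tested. This pair was compared after its values were seen.

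DSC1, the desmocollin of the upper epidermis, was not well above background on any array. Its processed signal was 1.36, 1.63, 8.71 and 1.39 in calves 21, 23, 24 and 25 on WP, against 3.58, 2.53, 1.32 and 1.30 on control. The lowest signal that counted as well above background was 16.9 on the WP array of calf 24 and between 4.93 and 8.0 on the others. The highest DSC1 reading was thus on the array with raised control spots. It lay below the lowest signal that counted as well above background there, and no fold is given.

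Of the desmogleins, DSG3, the pemphigus vulgaris antigen and a main adhesive cadherin of stratified epithelium, was nearly level between the diets. DSG3 stood at 1.92, 1.92, 1.69 and 2.22 in calves 21, 23, 24 and 25 on WP, against 2.04, 1.92, 1.92 and 2.07 on control. The difference was -0.05 ± 0.16 log2 (SD, n = 4), with an adjusted p of 0.903 and a 95% interval from -0.36 to 0.26. All 8 values lay within 0.53 log2, the narrowest range among the tested members. Without calf 24 the difference was 0.0097.

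DSG2, the desmoglein that simple epithelia also use, read close to background and had the most positive difference. Its processed signal was 17.4, 14.98, 32.9 and 15.1 in calves 21, 23, 24 and 25 on WP, against 14.5, 18.6, 20.8 and 15.6 on control. Scaled to the array, these were levels of -3.52, -3.75, -3.11 and -3.95 on WP and of -4.48, -3.95, -3.76 and -3.76 on control. The brightest reading came from the WP array with raised control spots, and the lowest level from calf 21 on control. The difference was 0.40 ± 0.51 log2 (SD, n = 4), with a 95% interval from -0.16 to 0.96 and an adjusted p of 0.659. Its size rested on the scaling: quantile scaling turned it to -0.11 and cyclic loess gave 0.050, while normexp background correction gave 0.27. DSG2 gave 0.13 within slide row 1 and 0.68 within row 2, and 0.22 without calf 21.

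**Figure D2:**
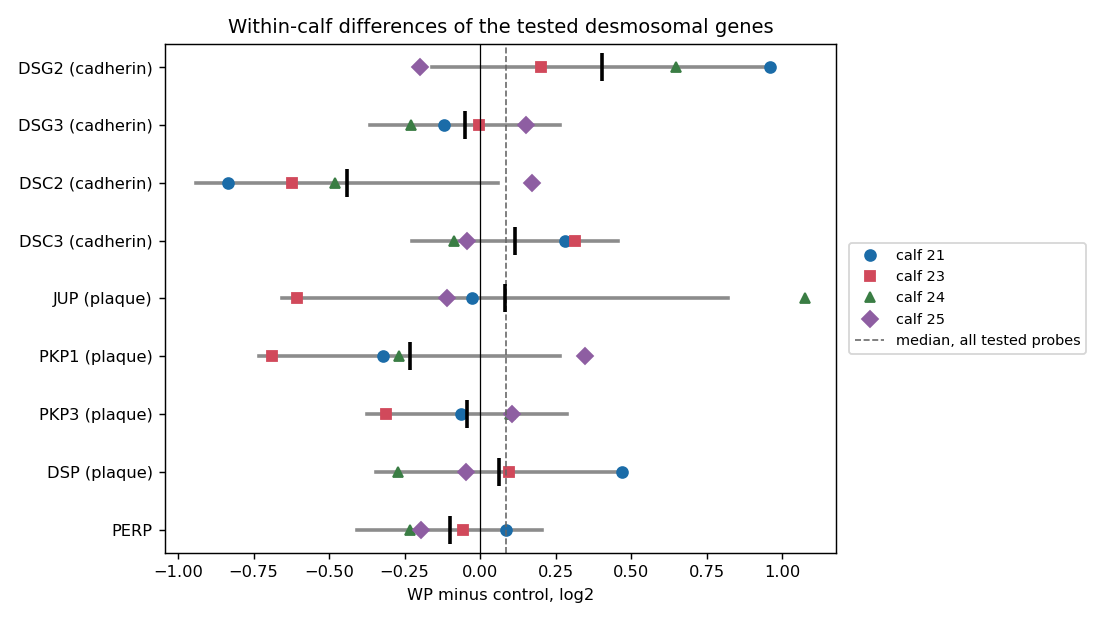
WP minus control difference (log2) of the 9 tested members, with 1 symbol per calf, a black bar at the mean, a grey bar for limma's 95% interval and a dashed line at the median of all tested probes (0.09). All 9 intervals include 0; DSC2 has the lowest mean (-0.44) and DSG2 the highest (0.40).

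In the plaque, PKP1, the plakophilin whose loss causes skin fragility in humans, varied most of all the tested members, with 1.78 log2 between its highest and lowest array. PKP1 stood at 5.2, 3.74, 4.18 and 5.51 in calves 21, 23, 24 and 25 on WP, against 5.52, 4.43, 4.45 and 5.16 on control. It was lower on WP in calves 21, 23 and 24 and higher in calf 25. The difference was -0.23 ± 0.43 log2 (SD, n = 4), with a 95% interval from -0.73 to 0.26 and an adjusted p of 0.708. Without calf 23 it was -0.080 and without calf 25 it was -0.43.

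PKP3, a plakophilin found in all layers of human epidermis, differed little between diets. It stood at -0.43, -0.91, -0.76 and -0.37 in calves 21, 23, 24 and 25 on WP, against -0.36, -0.60, -0.86 and -0.47 on control. The difference was -0.04 ± 0.19 log2 (SD, n = 4), with a 95% interval from -0.37 to 0.29 and an adjusted p of 0.921. It was below 0 in calves 21 and 23 and above 0 in calves 24 and 25, and without calf 23 it was 0.046.

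DSP, the plakin that anchors keratin filaments, was tightly grouped on WP and more spread on control. It stood at 1.96, 2.0, 1.95 and 2.01 in calves 21, 23, 24 and 25 on WP, against 1.49, 1.91, 2.22 and 2.05 on control. The WP mean was 1.98 ± 0.029 and the control mean 1.92 ± 0.31 (SD, n = 4 each); the difference in spread was not tested. The mean difference was 0.06 ± 0.31 log2 (SD, n = 4 calves), with a 95% interval from -0.34 to 0.47 and an adjusted p of 0.905. Without calf 21 it was -0.073, and within slide rows 1 and 2 it was -0.15 and 0.27.

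JUP, plakoglobin, which serves both desmosomes and adherens junctions, was dim, and its difference turned on 1 array. Its processed signal was 36.0, 26.6, 81.5 and 36.1 in calves 21, 23, 24 and 25 on WP, against 59.4, 57.8, 38.2 and 35.1 on control. In levels this was -2.47, -2.92, -1.81 and -2.70 on WP and -2.44, -2.31, -2.88 and -2.59 on control. The highest value was that of the WP array with raised control spots, and the other 3 calves had lower values on WP. The mean difference was 0.08 ± 0.71 log2 (SD, n = 4), with a 95% interval from -0.65 to 0.82 and an adjusted p of 0.933. Without calf 24 it was -0.25, and quantile and cyclic loess scaling gave -0.058 and -0.069, so JUP has no set direction here.

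PERP, a membrane protein that p63 and p53 switch on and that mouse epidermis needs for stable desmosomes, was near level. PERP stood at 5.25, 5.51, 5.06 and 5.43 in calves 21, 23, 24 and 25 on WP, against 5.16, 5.57, 5.29 and 5.63 on control. The values of 3 of 4 calves were lower on WP, by 0.23 at most. The mean difference was -0.10 ± 0.14 log2 (SD, n = 4), with a 95% interval from -0.41 to 0.21 and an adjusted p of 0.786.

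Cadherins and plaque proteins did not separate by diet. The 4 tested cadherins had a median difference of 0.03 log2 and the 4 plaque genes one of 0.01, against 0.09 over all tested probes. In each class 2 genes were above 0 and 2 below. The cadherin median was 0.080, 0.099, -0.16 and 0.055 in calves 21, 23, 24 and 25, and the plaque median was -0.045, -0.46, -0.085 and 0.029. Cadherin minus plaque was thus 0.13, 0.56, -0.073 and 0.025 in the 4 calves (SD 0.28), with values on both sides of 0. Taken instead from each gene's mean difference, the class medians differed by 0.02, which is not the mean of the 4 calf values. Without calf 24 that value was 0.25.

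The median of all tested probes bears on these signs, and it depended on scaling and filter. It was 0.09 on this scaling and -0.02 with quantile scaling, and relative to it DSC2 gave -0.53 and -0.38. Over probes above background on all 8 arrays it was 0.07, and with no filter on dim probes 0.23. It is thus not a fixed shift that need hold for every probe. Of the 9 members, 5 had a mean below 0, against 35.6% of all probes, and 5 were lower in at least 3 of 4 calves, against 22.5%. With quantile scaling these became 7 members against 52.5% and 4 members against 31.7%. Among the 5 lower in 3 calves were differences as small as -0.0026 for DSG3 in calf 23 and -0.026 for JUP in calf 21. No test was made of these shares.

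**Figure D3:**
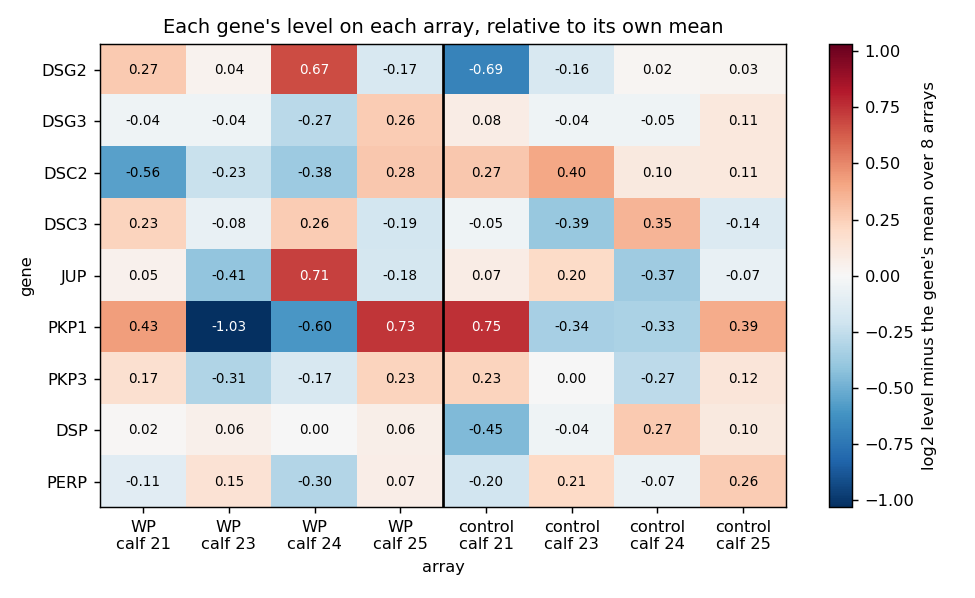
Level of each tested gene on each array minus the gene's own mean over the 8 arrays (log2; red higher, blue lower), WP arrays left of the line and control arrays right of it. PKP1 and PKP3 are red in calves 21 and 25 on both diets, while DSG2 and JUP have their deepest red on the WP array of calf 24.

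Levels of several members differed by calf on both diets. Over both diets PKP1 averaged 5.36 in calf 21 and 5.33 in calf 25, but 4.09 in calf 23 and 4.31 in calf 24. The calf thus took 87.5% of the variance of PKP1 over the 8 arrays and the diet 3.52%, against medians of 40% and 12.5% over all probes. The calf term compares 4 calves and the diet term 2 diets, so the 2 shares are read against these medians and not against each other. PKP3 split the same calves, with means of -0.39 for calf 21 and -0.42 for calf 25, of -0.75 for calf 23 and -0.81 for calf 24, and 82.5% of its variance between calves. PERP was higher in calves 23 and 25 (5.54 and 5.53) than in calves 21 and 24 (5.2 and 5.17), and DSC3 was higher in calves 21 and 24 (-0.11 and 0.11) than in calves 23 and 25 (-0.43 and -0.36).

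In 3 members the calf took less than the median share of all probes. DSC2 had 46.5% of its variance between diets and 19.9% between calves, DSG2 had 30.6% and 32.9%, and JUP had 1.56% and 13.4%. In the same limma fit the calf term gave PKP1 an adjusted p of 0.803 and PKP3 one of 0.931, so neither passed. The term called 0.00977% of all probes at the adjusted threshold, and PKP1 alone among the 9 members at an unadjusted p under 0.05, against 4.98% of all probes. Each calf held the same position in both slide rows, so calf and slide position cannot be told apart. This comparison was added after the data were seen.

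The slide row was set beside the diet because the WP arrays of calves 21 and 23 and the control arrays of calves 24 and 25 shared row 1. Row 1 minus row 2 was 0.22 for DSP (2.06 against 1.84) and 0.18 for DSC3 (-0.11 against -0.29). It was -0.27 for PKP1, -0.40 for JUP, -0.14 for PKP3 and 0.11 for PERP. Each of these was larger in size than the diet difference of the same gene. For DSC2 (-0.29), DSG2 (0.18) and DSG3 (-0.012) the row difference was the smaller one. No member passed the test for row, with adjusted p from 0.497 to 0.973, against 0% of all probes at the adjusted threshold and 12.9% at the unadjusted one. The sign of DSC3, DSP and PKP3 followed the row of the WP array, as it did for 10.7% of all probes in the direction of DSC3 and DSP and for 10.5% in that of PKP3.

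Other genes of the desmosome and its neighbours were read from lists that share no member with the 10. Of the 5 further desmosome genes, 2 were tested and 0 passed. DSG1, the desmoglein of the upper epidermis, stood at 0.04, 0.94, -2.23 and 1.31 in calves 21, 23, 24 and 25 on WP, against -1.79, -0.34, 1.47 and 2.11 on control. Its differences of 1.83, 1.28, -3.70 and -0.80 thus changed sign with the slide row, and averaged -0.35 ± 2.51 log2 (SD, n = 4; adjusted p = 0.911 in limma). PKP4, an armadillo relative of the plakophilins, gave 0.75 ± 0.97 (SD, n = 4, adjusted p = 0.658 in limma), with 2.11 in calf 24. Its probe was dim, with a processed signal of 16.9 to 31.6 except on the WP array of calf 24. There it read 103, on the array with raised control spots. PKP2 was above background on no array, DSG4 on 2 and CDSN, the corneodesmosome protein, on 1.

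The adherens junction, which runs on classical cadherins and catenins, was tested at 8 of 10 genes, with 3 lower, 5 higher and 0 past the threshold. VCL, vinculin, was higher in 4 of 4 calves (0.44 ± 0.19, SD, n = 4; adjusted p = 0.658), a direction shared by 12% of all probes. CDH3, P-cadherin, gave -0.61 ± 1.11, with -2.07 in calf 21 and 0.41 in calf 25, and NECTIN2 gave -0.14 ± 0.40 (SD, n = 4). CDH1, E-cadherin, which was not named by the rule but is the reference cadherin of epithelia, gave 0.02 ± 0.32 (SD, n = 4).

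Among the keratins and plakins that desmosomes hold, 11 of 16 genes were tested, with 5 lower, 6 higher and 0 past the threshold, and a median of 0.04. KRT10, a suprabasal keratin, gave 0.50 ± 0.48, the basal keratin KRT14 -0.49 ± 0.48 and KRT17 -0.35 ± 0.28 (SD, n = 4; adjusted p = 0.658 each in limma). Of 12 transcription factors of stratified epithelium, 10 were tested, 5 lower and 5 higher. GRHL2 gave 0.36 ± 0.32, TP63, the master factor of stratified epithelium, 0.32 ± 0.45 and GRHL1 -0.27 ± 0.57 (SD, n = 4).

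Of 12 proteases and inhibitors that act on desmosomal proteins, 10 were tested, 6 lower and 4 higher, with a median of -0.20 and 0 past the threshold. SPINK5, an inhibitor of the kallikreins that cleave desmosomal proteins in human skin, was lower in 4 of 4 calves (-0.94 ± 0.68, SD, n = 4; adjusted p = 0.658), and so was CTSV, cathepsin V (-0.31 ± 0.10, SD, n = 4; adjusted p = 0.658). Among all probes 5.41% were lower in 4 of 4 calves. CSTA, an inhibitor of cysteine proteases, gave -0.41 ± 0.61 (SD, n = 4). The kallikreins KLK7 and KLK14 were above background on no array, while KLK5 and KLK8 were above background on all 8 arrays. KLK5 gave 0.15 ± 0.41 and KLK8 -0.11 ± 0.39 (SD, n = 4).

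**Figure D4:**
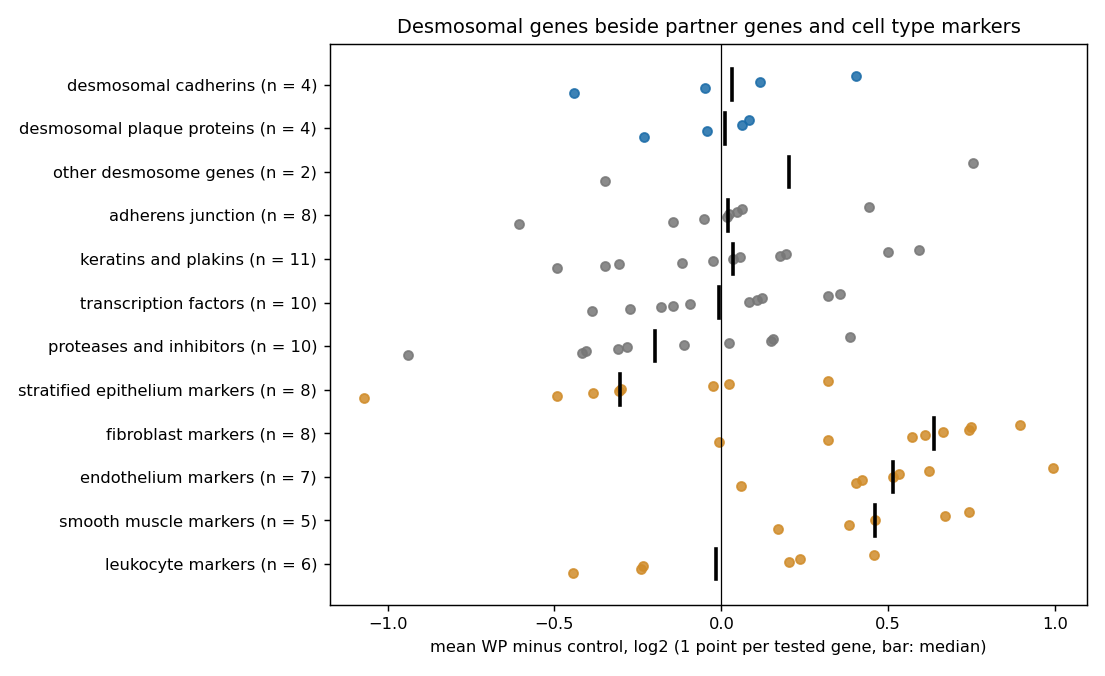
Mean WP minus control difference (log2) of the tested genes, by list, with 1 point per gene and a black bar at the list's median. Blue marks the cadherin and plaque members, grey the partner lists and orange the cell type markers, and PERP is not drawn. Both desmosomal classes have medians near 0 (0.03 and 0.01), fibroblast markers lie highest (0.64) and stratified epithelium markers lowest (-0.30).

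Markers of fibroblasts, endothelium and smooth muscle had mostly higher values on WP. In whole-tissue RNA a change in the number of cells of a type and one in RNA per cell cannot be told apart. Over all tested probes 35.6% had a mean difference below 0, and the median was 0.09. Fibroblast markers were higher on WP in 7 of 8 genes, with a median of 0.64. Their summed signal, in multiples of the array's 75th percentile, ran from 17.9 to 42.7 on WP and from 9.83 to 39.0 on control. The fibroblast median was -0.29, 0.38, 1.19 and 0.78 in calves 21, 23, 24 and 25, beside DSC2 differences of -0.83, -0.62, -0.48 and 0.17. Endothelium markers were higher in 7 of 7 tested genes of 8 (median 0.52, summed signal 5.09 to 9.47 on WP and 3.89 to 6.89 on control, CDH5 above background on no array). Smooth muscle markers were higher in 5 of 5 tested genes of 7 (median 0.46, 15.5 to 20.9 on WP and 11.4 to 18.3 on control). By calf, the medians were -0.30, 1.66, 0.061 and 0.45 for endothelium and 0.24, 0.80, 0.49 and 0.0077 for smooth muscle.

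Leukocyte markers had a median of -0.02 over 6 of 9 genes, with -1.49, 0.080, 0.72 and 1.003 by calf, 3 genes higher, a summed signal of 2.36 to 4.03 on WP and of 2.07 to 6.32 on control, and MS4A1 above background on no array. Markers of stratified epithelium, of which KRT5, KRT14, KRT6A, TP63 and CDH1 also stand on lists above, were lower in 6 of 8 genes. Their median was -0.30, with calf medians of -0.30, -0.073, -0.53 and -0.086. Their summed signals were 364 to 550.1 on WP and 512 to 561 on control. Of all tested probes, 35.6% had a mean difference below 0. No marker passed the adjusted threshold. The part of these shifts in the desmosomal values was not tested.

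Genes whose levels ran most like the mean of each class were searched among 9748 genes. Each member was centred on its own mean, so members of wide range weigh most. Among these are DSG2 (1.36 log2 over the 8 arrays), PKP1 (1.78) and JUP (1.11). Likeness is Pearson's r over 8 arrays, which share 4 calves and 1 slide, and is given as a description. How high the best r of 9748 unrelated genes would run was not tested. To the mean of the 4 tested cadherins the closest were PRR19 (r = 0.94), CNPY4 (0.94), PLIN5 (0.90), MPHOSPH6 (0.90) and IFIH1 (0.89), the last above background on 4 arrays only. To the mean of the 4 plaque genes they were CDC42 (0.96), PISD (0.96), HSF1 (0.94), NPTX1 (0.93) and PSMD4 (0.93).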

How the data were processed

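RNA of rumen epithelium from 4 calves on each of the 2 diets was measured on 8 single-colour arrays of design 072598, with Cy3-labelled cRNA made from 500 ng of RNA per the labels. The authors deposited scanner files of spot intensity, already corrected for background, from Agilent's Feature Extraction, version 11.0.1.1 per the file headers (9.5 per the submitters' processing notes), and a table of log2 values, each column of which is the log2 processed signal shifted by a constant (slopes 1.00). Control spots (536) and 97 flagged spots were left out, spots of 1 probe were averaged, and the array's 75th percentile was subtracted. Probes above background on at least 4 arrays (10236 of 15008) were tested with limma 3.58.1 in R 4.3.3, two-sided, calf as a block, Benjamini-Hochberg over all probes, a check on simulated data included. The pairing comes from the labels; deviations of a calf's 2 arrays correlated with r of 0.0084, 0.195, 0.0597 and 0.0471. A sign-flip test over 4 calves cannot go below an exact p of 0.125. The number of arrays limits the precision. Symbols came from RefSeq (ARS-UCD2.0): 11683 probes matched through an accession, 2675 through a symbol and 36 through a synonym, and 614 kept the design's name.

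The members and lists were chosen with earlier results of these data known. Named genes are the 10 members, up to 3 genes of smallest p in each partner list and the 5 genes of highest r to each class. Alternatives covered background correction, scaling, the value table, filters, the calf block, slide row, the prior, the probe rule and each calf left out.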

Additional observations from a re-analysis of the deposited data

How the results depend on the processing

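The count of probes past the adjusted threshold was 0 under all 17 alternatives, and no member passed under any of 18. An unadjusted p under 0.05 was found for 715 probes, for 1427 with normexp background correction, 464 within slide row 2 and 429 without calf 24; quantile scaling split these into 336 lower and 192 higher, cyclic loess into 410 and 265 and no filter on dim probes into 101 and 802, against 179 and 536. Fits with no replicate block, with a random replicate block or with slide row beside the replicate block left each member's difference as it was. This is so because every calf has both diets and each slide row holds WP and control arrays in equal number. These fits changed no call of the pairing: 0 probes passed in each, with 785, 839 and 1017 at the unadjusted threshold. The values within a slide row compare WP and control arrays of different calves and are not paired. DSC2 (-0.65 to -0.31), PKP1 (-0.43 to -0.080) and PERP (-0.19 to -0.057) kept their sign under all 18. Signs turned for DSG2 with quantile scaling (-0.11), DSG3 without calf 24 (0.0097), DSC3 within slide row 1 (-0.023), JUP with quantile (-0.058) and cyclic loess scaling (-0.069) and without calf 24 (-0.25), PKP3 within slide row 1 (0.0011) and without calf 23 (0.046), and DSP within slide row 1 (-0.15) and without calf 21 (-0.073); the cause was not tested. With 1 calf left out DSG3 ran from -0.12 to 0.0097, DSC3 from 0.050 to 0.18, JUP from -0.25 to 0.31, PKP3 from -0.092 to 0.046 and DSP from -0.073 to 0.17, while the cadherin median ran from -0.0078 to 0.096, the plaque median from -0.16 to 0.049 and their difference from -0.057 to 0.25. The range of calf means ran from 1.05 to 1.35 for PKP1 and from 0.34 to 0.44 for PKP3 over 10 alternatives chosen after seeing the data, and neither passed. With 4 calves, the 95% intervals do not exclude a difference as low as -0.94 for DSC2 or as high as 0.96 for DSG2 and 0.82 for JUP.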

Other observations

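Several genes of epithelial differentiation and barrier formation had the calf pattern of DSC2 and PKP1, with lower values on WP in calves 21, 23 and 24 and higher ones in calf 25. They were picked after their values were seen, and all differences of a calf share its 2 arrays. GRHL1, a transcription factor that controls Dsg1 in mouse skin, gave -0.64, -0.74, -0.24 and 0.52 in calves 21, 23, 24 and 25 (adjusted p = 0.723 in limma). GRHL3, its relative needed for barrier formation in mice, gave -0.33, -0.57, -0.14 and 0.31. The membrane proteases ST14, matriptase, and PRSS8, prostasin, which act in 1 cascade in mouse epidermis, gave -1.22, -0.96, -0.014 and 0.53 and -0.60, -0.69, -0.13 and 0.29. ZNF750, a differentiation factor, gave -0.13, -0.53, -0.046 and 0.34. None of these 5 passed the threshold.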
